A study of Mus musculus with 12 samples.

Results

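The mitochondrial ribosomal protein genes were followed through cultured mouse macrophages treated with IL4, the cytokine of alternative activation, with and without emodin, a plant anthraquinone. They were taken as every gene with a symbol that starts Mrpl or Mrps followed by a number and with an array probe to its RefSeq transcript. That gave 78 genes with 100 probes, of 55681 probes on the array, and 77 of the 78 genes were among the 20859 genes and unnamed transcripts tested. Mrpl21 had a single probe that was not well above background on any of the 12 arrays and was not tested. The 78 genes lay on 17 chromosomes, with 11 on chromosome 11.

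Mitochondria carry a ribosome of their own, which makes only the few hydrophobic respiratory chain and ATP synthase subunits that mitochondrial DNA still encodes. Its ribosomal RNAs come from mitochondrial DNA, while all of its proteins are encoded in the nucleus, made in the cytosol and imported, so the assembly of the ribosome draws on both genomes. About the proteins it is known that some descend from bacterial ribosomal proteins and that others were added in the mitochondrial line. The large subunit holds the peptidyl transferase centre and the exit tunnel, and the small subunit holds the decoding centre. In macrophages, alternative activation by IL4 is known for a strong reliance on mitochondrial respiration.

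The cells were peritoneal macrophages of wild-type (WT) C57BL/6 mice aged 8 weeks, kept as the cells that stayed attached to the plate and rested in medium without serum. In the first group, IL4 at 10 ng/ml was given together with emodin at 50 µM. The second group had the same IL4 without emodin, and the third had vehicle alone, with 4 arrays in each group. The treatment lasted 6 h by the sample descriptions and overnight by the protocol. The series text speaks of blood leukocytes where the sample labels say peritoneal macrophage, and it does not state what was separate among replicates, so that p-values reflect no more than the scatter of these arrays.

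The 9 macrophage markers on the array, among them Csf1r, Adgre1 and Mertk, were above background on all 12 arrays. Markers of other cell types were mixed: 4 of 8 for neutrophils, 3 of 6 for T cells, 1 of 6 for B cells and 6 of 8 for mesothelial cells and fibroblasts were above background on all 12 arrays, while Ngp of neutrophils, Cd3d and Cd3g of T cells and Pax5 and Blk of B cells were above it on none. The summed level of the 8 neutrophil markers was 36.6 to 59.0 with IL4 plus emodin, 19.2 to 30.4 with IL4 and 27.1 to 39.9 in control, in units of an array's 75th percentile. That of the 5 markers of large peritoneal macrophages was 5.58 to 6.58 with IL4 plus emodin, 9.46 to 11.2 with IL4 and 9.72 to 10.6 in control. That of the 6 B-cell markers was 0.398 to 0.564 with IL4 plus emodin, 1.18 to 2.18 with IL4 and 1.05 to 2.38 in control. These 3 sums differed without overlap between IL4 plus emodin and IL4. Between IL4 and control the macrophage, T-cell and eosinophil sums did so. The macrophage markers summed to 735 to 831 with IL4, against 669 to 688 in control. T-cell markers summed to 2.44 to 4.19 against 4.96 to 6.10, and eosinophil markers to 0.598 to 0.945 against 1.24 to 1.38. The part of these sums in the results was not tested. The 6 arrays labelled male had Xist above background and no Y-linked gene of 4 above it, which goes against that label, and no result here rests on it. The 4 emodin arrays shared 1 slide, and the other 8 arrays lay on a second one with IL4 in row 1 and control in row 2. Emodin therefore cannot be told apart from the slide, nor IL4 from the row. The 75th percentile of the processed signal was 488 ± 31.4 with IL4 plus emodin, 776 ± 24.4 with IL4 and 730 ± 74.0 in control (SD, n = 4 each). It was lower in every emodin array than in any IL4 array, and the two-sided exact permutation p of 0.0286 was the smallest that 4 against 4 arrays can give.

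The scaling of the arrays sets the direction of many of emodin's differences. Levels below are log2 signal minus the array's 75th percentile, called the first scale here, which sets that percentile equal on all arrays, and a gene was called where limma's Benjamini-Hochberg adjusted p over all 20859 tested was under 0.05. On the first scale the median of everything tested was 0.17 higher on the log2 scale with IL4 plus emodin than with IL4. Under quantile scaling this median was 0.022, and it was -0.91 when arrays were set to equal level on 6 spike-in probes, a shift of -1.07 from the first scale. Between IL4 and control the 3 medians were -0.028, -0.029 and 0.10. Directions under emodin are therefore relative to the bulk of the RNA on an array, and in bulk RNA fewer cells of a type and less RNA per cell cannot be told apart.

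The promoters of 5 genes that carry the main results are printed first, from 250 bases before to 50 bases after the RefSeq start in the build GRCm38.p6, each on its own strand from 5′ to 3′. By the probe used for each gene, Mrpl36 and Mrps12 showed the largest falls under emodin, Mrpl1 and Mrpl32 were among the 3 largest rises, and Mrps26 led the rises under IL4. Capitals mark matches, on either strand, to GCGC followed after 2 free bases by GCGC (the core of the NRF1 motif), CCGGAAG (ETS factors such as GABPA), AAGATGGCG (YY1), CACGTG (the E-box) or GGGCGG (SP1).
Mrpl36 (chr13:73330759-73331058, plus strand): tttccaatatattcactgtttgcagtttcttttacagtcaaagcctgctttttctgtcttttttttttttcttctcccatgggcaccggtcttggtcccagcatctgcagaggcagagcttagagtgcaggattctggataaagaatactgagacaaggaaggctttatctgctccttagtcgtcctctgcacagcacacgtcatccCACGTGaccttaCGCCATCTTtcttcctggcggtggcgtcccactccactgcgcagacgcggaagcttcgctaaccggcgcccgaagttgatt
Mrps12 (chr7:28741772-28742071, minus strand): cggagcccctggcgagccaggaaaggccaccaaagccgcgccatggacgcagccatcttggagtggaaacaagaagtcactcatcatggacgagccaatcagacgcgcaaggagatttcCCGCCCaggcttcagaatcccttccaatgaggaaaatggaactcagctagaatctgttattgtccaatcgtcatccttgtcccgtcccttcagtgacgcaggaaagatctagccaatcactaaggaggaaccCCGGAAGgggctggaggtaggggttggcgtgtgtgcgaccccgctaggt
Mrpl1 (chr5:96209865-96210164, plus strand): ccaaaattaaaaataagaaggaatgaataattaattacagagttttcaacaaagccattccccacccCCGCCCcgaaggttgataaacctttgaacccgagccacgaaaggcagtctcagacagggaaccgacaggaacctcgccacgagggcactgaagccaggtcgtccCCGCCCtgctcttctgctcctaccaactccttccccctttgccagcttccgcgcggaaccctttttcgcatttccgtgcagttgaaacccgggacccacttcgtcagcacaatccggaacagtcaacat
Mrpl32 (chr13:14612988-14613287, minus strand): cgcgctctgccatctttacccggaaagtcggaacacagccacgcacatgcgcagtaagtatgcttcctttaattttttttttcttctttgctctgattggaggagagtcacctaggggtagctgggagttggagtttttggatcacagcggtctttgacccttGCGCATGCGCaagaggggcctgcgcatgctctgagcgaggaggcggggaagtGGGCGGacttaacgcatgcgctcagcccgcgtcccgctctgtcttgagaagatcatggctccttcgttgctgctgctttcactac
Mrps26 (chr2:130563507-130563806, plus strand): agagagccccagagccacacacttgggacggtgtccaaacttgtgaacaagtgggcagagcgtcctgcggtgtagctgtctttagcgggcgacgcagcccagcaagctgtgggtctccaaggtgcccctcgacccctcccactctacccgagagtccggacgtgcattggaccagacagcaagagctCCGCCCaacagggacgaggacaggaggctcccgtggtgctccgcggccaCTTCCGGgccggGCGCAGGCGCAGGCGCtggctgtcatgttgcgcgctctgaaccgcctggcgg

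The promoter of Mrpl36 held 1 YY1 and 1 E-box match and that of Mrps12 held 1 ETS and 1 SP1 match. The promoter of Mrpl1 held only SP1 matches, 2 of them, and that of Mrpl32 held 1 NRF1 and 1 SP1 match. Mrps26 had 2 NRF1 matches, 1 ETS match and 1 SP1 match. Promoters were found for 69 of the 78 genes, 75 promoters in all, and the motifs were counted over all of them. The ETS letters stood in 34.67% of these promoters, against 8.858% of all 32851 RefSeq promoters of the same length and 11.56% of those of protein-coding genes. The YY1 letters stood in 10.67%, against 1.403% and 1.834%, and the NRF1 letters in 18.67%, against 6.225% and 8.574%. The E-box was at 9.333%, against 7.15% and 7.835%, and the SP1 letters were at 52%, against 35.66% and 46.2%. Promoters of the same gene were counted separately even where they overlapped. The same E-box of Mrpl2 and the same SP1 letters of Mrpl2 and Mrps16 were therefore counted more than once. In 2 promoters an ETS and an SP1 match shared bases. A match is a run of letters and does not show that a factor binds there. Another coding gene started on the opposite strand within 1000 bases upstream for 24 of the 69 genes, or 34.78%, against 8.478% of 17492 coding genes. Mrps12 was one of them, 147 bases from Sars2, which encodes the mitochondrial seryl-tRNA synthetase, and Mrpl32 stood 205 bases from the proteasome gene Psma2.

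IL4 without emodin changed few of these genes. Against control, Mrps26 and Mrps25 rose, 2 of the 77 tested, which is 2.6% of them, while 17.5% of everything tested was called, 8.97% as higher and 8.57% as lower. Both encode small-subunit proteins with no bacterial counterpart. The median difference of the 77 genes was 0.017 on the log2 scale, against -0.028 over everything tested, and 72 of the 77 lay within 0.25 of 0 on that scale. By limma, 0 of the 77 were called lower, and 8 had an unadjusted p under 0.05 in either direction. The share of everything tested at that unadjusted p was not counted.

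Mrps26 stood at log2 levels of 5.75, 5.82, 5.77 and 5.74 on the IL4 arrays, against 5.17, 5.42, 5.47 and 5.27 on the control arrays. Every IL4 array lay above every control array, the difference was 0.44 ± 0.09 (SE, 1.35-fold) and its adjusted p by limma was 0.0046. Its other probe differed by 0.35, in the same direction and with an adjusted p by limma over probes of 0.0191. Mrps26 thus moved in both of its probes.

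Mrps25 stood at 4.60, 4.66, 4.65 and 4.52 with IL4, against 4.19, 4.38, 4.32 and 4.15 in control. These groups did not overlap either, with a difference of 0.35 ± 0.09 (SE) and an adjusted p by limma of 0.0174, but the other probe of Mrps25 differed by 0.016. Without control replicate 4 the difference was 0.31 and without IL4 replicate 2 it was 0.33, with adjusted p by limma of 0.0554 and 0.0521. The call on Mrps25 therefore needs each of these arrays. Mrps28, a small-subunit protein, had the largest difference of the 77, 0.46, with an adjusted p by limma of 0.064. Together with Mrps26 and Mrps25 it was called under quantile and under spike-in scaling, at 0.46 and 0.59, where 18.1% and 11.8% of everything tested was called.

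The genes with set roles stayed close to control. Mrpl12, the stalk protein that brings translation factors to the ribosome, differed by 0.10, and Mrpl45, which lies near the exit tunnel at the inner membrane, by 0.011. Mrpl58, a peptidyl-tRNA hydrolase built into the large subunit, differed by 0.027, and Mrps12 of the decoding centre by -0.045. Of the 3 paralogs related to bacterial S18, Mrps18a differed by 0.022, Mrps18b by 0.15 and Mrps18c by 0.13. Mrpl44, Mrpl3 and Mrps34 differed by 0.11, 0.22 and 0.17. By the probe used for each gene, none of these was called. The other probe of Mrps18b was higher by 0.26, with an adjusted p by limma over probes of 0.0483. Across the 75 uncalled genes the 95% intervals reached from -0.61, for Mrps6, to 0.79, for Mrps28, so changes of that size in single genes are not excluded by these arrays.

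**Figure D1:**
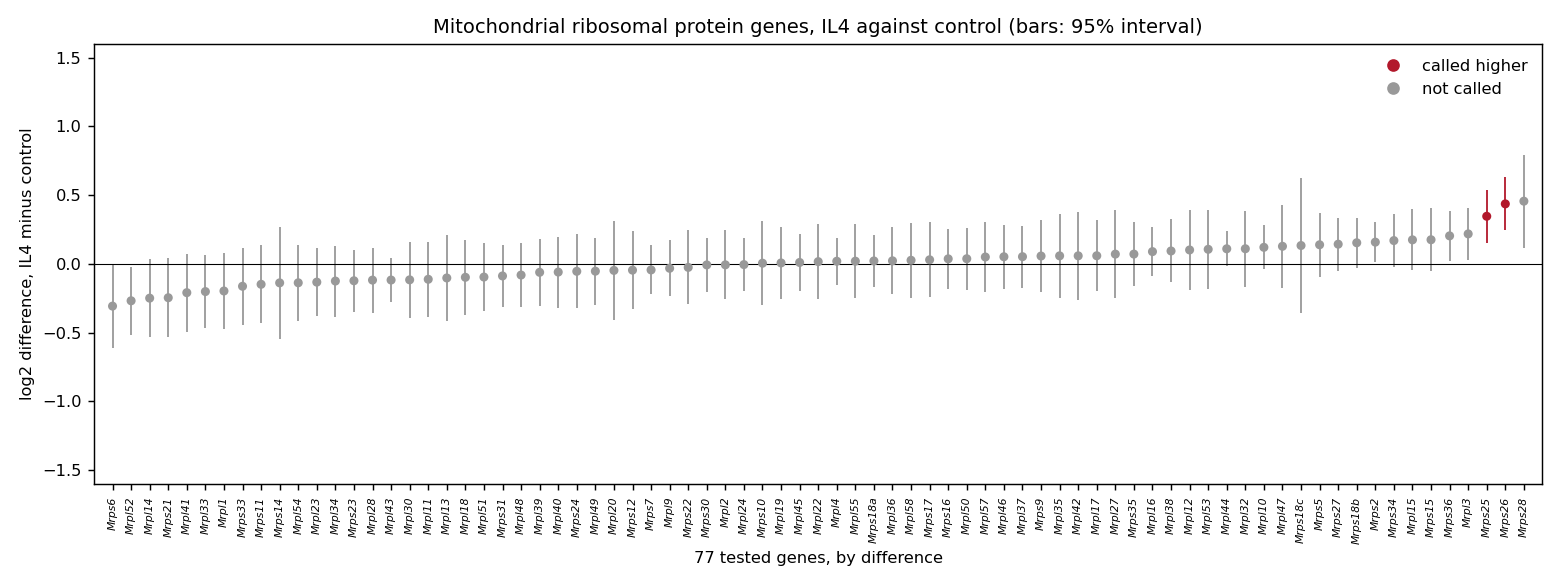
Log2 difference between IL4 and control (y axis) for each of the 77 tested genes (x axis, ordered by difference); points are fitted differences, bars their 95% intervals, red the genes called higher and grey those not called. The 2 called genes, Mrps26 at 0.44 and Mrps25 at 0.35, sit at the right end beside Mrps28, and 72 of the 77 points lie within 0.25 of 0.

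The replicate number was shared by IL4 and control arrays in the same slide column, and same-numbered arrays deviated together, with correlations of 0.31 to 0.52. With the number as a replicate block 5 of the 77 were called, 4 higher and 1 lower, while 25.4% of everything tested was, 12.7% as higher and 12.8% as lower. The added calls were Mrps28 at 0.46, Mrps36 at 0.20 and Mrps6 at -0.31, with adjusted p by limma of 0.0243, 0.0468 and 0.0297. Mrps36 carries a ribosomal name, although its product has since been assigned to the 2-oxoglutarate dehydrogenase complex. With 1 array left out, the count without the block ranged from 1, without control replicate 4 or IL4 replicate 2, to 4, without control replicate 1. The share of everything tested was not counted there.

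With emodin the same genes spread apart in both directions. With IL4 plus emodin against IL4 alone, 43 of the 77, or 55.8%, were called, while 65.9% of everything tested was called. Of these, 23 rose and 20 fell relative to the 75th percentile, where 39.4% of everything tested rose and 26.5% fell. Under quantile scaling 19 rose and 28 fell, where 29.4% of everything tested rose and 30.9% fell. Under spike-in scaling 0 rose and 74 fell by limma, where 3.52% of everything tested rose and 80.2% fell. The differences ran from -1.54 for Mrpl36 to 1.34 for Mrpl1, which is 2.87 on the log2 scale, and their median was 0.11 against 0.17 for everything tested. All 20 genes called lower on the first scale were called lower under the other 2 scalings as well. Quantile scaling moved the median of everything tested by -0.14, and spike-in scaling moved each gene by the same -1.07. A fall on the first scale thus stays a fall under spike-in scaling by construction. Of the 23 called higher, 19 were called higher under quantile scaling, while under spike-in scaling 20 were called lower and 3, Mrpl1, Mrps30 and Mrpl32, were not called.

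The fall was deepest in Mrpl36, the small zinc-binding protein bL36m of the large subunit, a homolog of bacterial L36. Its levels were 3.56, 3.60, 3.68 and 3.64 with IL4 plus emodin, against 5.06, 5.31, 5.25 and 5.01 with IL4 and 4.86, 5.35, 5.28 and 5.06 in control. The 4 emodin arrays lay close together and below all 8 others. The difference from IL4 was -1.54 ± 0.11 (SE, 2.90-fold lower), with an adjusted p by limma of 2.71e-07, and it was -1.64 and -2.61 under quantile and spike-in scaling.

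Mrps12, the decoding-centre protein uS12m of the small subunit, followed. Its levels were 3.76, 3.68, 4.09 and 3.88 with IL4 plus emodin, against 4.90, 5.16, 5.21 and 4.97 with IL4 and 4.84, 5.35, 5.23 and 4.99 in control. No emodin array reached the lowest of the other 8. The difference from IL4 was -1.21 ± 0.13 (SE, 2.31-fold lower), with an adjusted p by limma of 6.87e-06. By the probe used for each gene, Mrpl36 and Mrps12 fell at least 2-fold on the first scale, while the other probes of Mrpl49 and Mrps14 differed by -1.70 and -1.44.

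A further 6 falls of 0.63 or more were all in large-subunit genes. Mrpl20, a homolog of a bacterial protein that joins the large subunit early in assembly, stood at 5.54, 5.74, 5.86 and 5.81 with IL4 plus emodin, against 6.55, 6.77, 6.63 and 6.17 with IL4. The groups did not overlap, with a difference of -0.79 ± 0.16 (SE) and an adjusted p by limma of 0.00116. Mrpl50, Mrpl42 and Mrpl41, which have no bacterial counterpart, differed by -0.78, -0.74 and -0.71. Mrpl34 and Mrpl18, which have one, differed by -0.64 and -0.63. The other probe of Mrpl50 differed by -0.16 and was not called, while both probes of Mrpl41 were called lower.

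The largest rise relative to the 75th percentile was that of Mrpl1, the protein of the mobile L1 stalk past which spent tRNAs leave the ribosome. Its levels were 1.75, 2.02, 2.08 and 1.90 with IL4 plus emodin, against 0.56, 0.70, 0.67 and 0.48 with IL4 and 0.56, 1.06, 0.98 and 0.59 in control. All 4 emodin arrays lay above the highest of the other 8. The difference from IL4 was 1.34 ± 0.13 (SE, 2.52-fold), with an adjusted p by limma of 2.36e-06. It was 1.35 under quantile scaling and 0.26 under spike-in scaling, where the adjusted p by limma was 0.0793, and it was the only one of the 77 above 0 there.

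Mrps30, which is named for the small subunit but sits in the large one, stood at 4.30, 4.55, 4.53 and 4.48 with IL4 plus emodin, against 3.52, 3.61, 3.48 and 3.40 with IL4. The emodin arrays were all higher, by 0.96 ± 0.09 (SE), with an adjusted p by limma of 2.4e-06, though under spike-in scaling the difference turned to -0.11. Mrpl32, a zinc-binding large-subunit protein that matures only after cleavage by the inner-membrane m-AAA protease, stood at 4.06, 4.21, 4.40 and 4.13, against 3.32, 3.47, 3.36 and 3.17 with IL4. This too was a rise without overlap, 0.87 ± 0.13 (SE, adjusted p by limma 7.95e-05), which turned to -0.20 under spike-in scaling.

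Mrpl49, Mrps18a, Mrpl45, Mrpl14 and Mrpl30, all of the large subunit, rose by 0.77, 0.75, 0.69, 0.66 and 0.56 relative to the 75th percentile and stood at -0.30, -0.32, -0.39, -0.41 and -0.51 under spike-in scaling. Mrps34 of the small subunit rose by 0.54 on the first scale and stood at -0.54 under spike-in scaling. The lone Mrps18a spot of control replicate 2 was flagged by the scanner software, so that gene was fitted on 11 arrays. The rise of Mrpl49 is uncertain, since its other probe differed by -1.70 and the mean of its probes by -0.47.

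**Figure D2:**
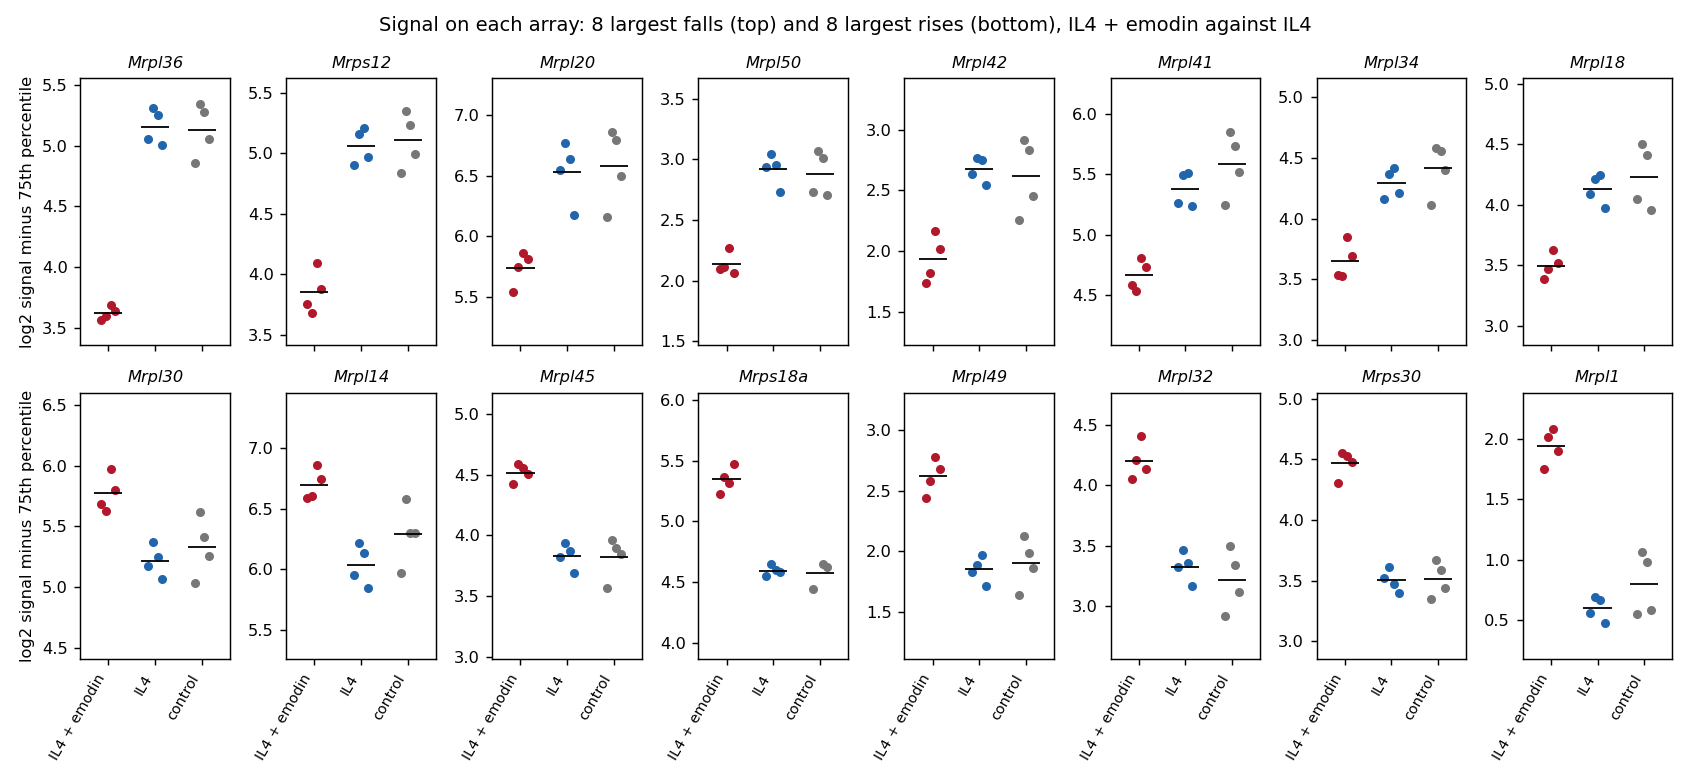
Log2 signal minus the array's 75th percentile (y axis) on each array for the 8 largest falls (top row) and 8 largest rises (bottom row) of IL4 plus emodin against IL4, with groups along the x axis, 1 point an array and a line at the group mean; every panel spans the same height. The 16 genes were picked among called genes whose IL4 plus emodin and IL4 arrays did not overlap, so their separation follows from the choice. The other probe of Mrpl49 moved the opposite way. Under spike-in scaling the rises, other than that of Mrpl1, turn to differences below 0.

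**Figure D3:**
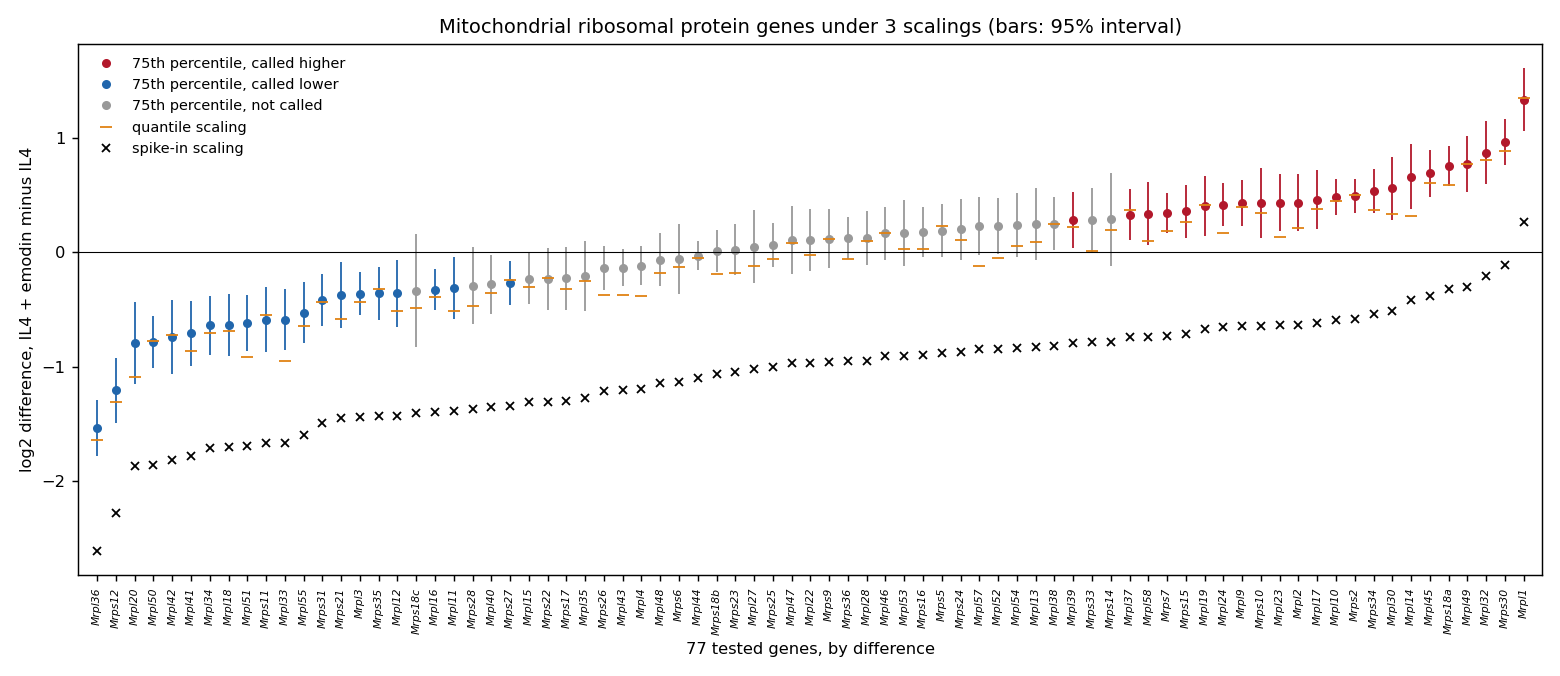
Log2 difference between IL4 plus emodin and IL4 (y axis) for the 77 tested genes (x axis, ordered by difference), with points and 95% interval bars for 75th percentile scaling coloured by call, orange dashes for quantile scaling and black crosses for spike-in scaling. On the first scale 23 genes are called higher and 20 lower, and under spike-in scaling every gene but Mrpl1 lies below 0.

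The other genes with set roles gave smaller values. Mrpl12, the stalk protein, and Mrpl3, a core large-subunit protein, were both lower by 0.36, with adjusted p by limma of 0.0314 and 0.00275. The call on Mrpl12 was lost on leaving out any 1 of 5 arrays, with adjusted p by limma of 0.0603 to 0.0844. Mrpl58, the built-in peptidyl-tRNA hydrolase, was higher by 0.34 on the first scale and stood at 0.10, uncalled, under quantile and -0.74 under spike-in scaling. Its call was also lost without IL4 replicate 1 or 4 or IL4 plus emodin replicate 3 or 4. Mrpl44, which has the fold of an RNase, differed by -0.029, with a 95% interval of -0.16 to 0.10, and Mrps18b by 0.011, from -0.17 to 0.19. Mrps18c differed by -0.33, from -0.83 to 0.16. The 3 S18-related paralogs thus stood at 0.75, 0.011 and -0.33 on the first scale, and only Mrps18a was called.

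Both subunits held rises and falls, and the counts below stand beside 39.4% rises and 26.5% falls over everything tested on the first scale, 29.4% and 30.9% under quantile scaling, and 3.52% and 80.2% under spike-in scaling. On the first scale the 50 large-subunit genes tested had 18 rises and 14 falls, with a median of 0.15, and the 26 small-subunit genes had 5 rises and 6 falls, with a median of 0.017. Under quantile scaling the counts were 14 and 18 in the large subunit and 5 and 10 in the small one, and under spike-in scaling 47 of 50 and 26 of 26 fell. The 45 genes classed as having a bacterial homolog had 15 rises and 13 falls on the first scale, with a median of 0.11. The 31 classed as specific to mitochondria had 8 and 7, with a median of 0.067. Mrps18a was counted among the 31, although it is related to bacterial S18. Across the 77 genes the difference had a Spearman correlation of -0.053 with the mean level over all 12 arrays, a description over genes measured on the same arrays.

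Some genes were read by several probes, and under emodin these did not always move together. Among 22 genes with several probes above background, 14 had differences of one sign, and 2, Mrpl49 and Mrps7, had probes called in opposite directions relative to the 75th percentile. In 3 of the 22 every probe was called in the same direction. For Mrpl39, called at 0.28, the other probe stood at -0.30, uncalled. Mrpl15 and Mrps23 were called only on the probe not used, at -0.66 and 0.59. The Mrpl49 probe used above, chosen as the brighter over all 12 arrays, had mean levels of 2.62 with IL4 plus emodin, 1.85 with IL4 and 1.90 in control. The other averaged 0.62 with IL4 plus emodin, 2.33 with IL4 and 2.40 in control, so the first was the brighter one only on the emodin arrays, and the emodin difference itself had a part in the choice of probe. The other probe's difference from IL4 was -1.70, with an adjusted p by limma over probes of 6.63e-09. The 2 probes of Mrps7, an early-binding protein of the small subunit, differed by 0.34 and -0.33. For Mrps14, another small-subunit protein, the brighter probe differed by 0.29 without a call and the dimmer one by -1.44, with an adjusted p by limma over probes of 2.18e-05. Under spike-in scaling the probes used for Mrpl49, Mrps7 and Mrps14 were all below 0. Where in the transcripts these probes lie was not analysed here, and the direction of these 3 genes and of Mrpl39 is uncertain.

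Against control, which shares the emodin arrays with the comparison above, 47 of the 77, or 61%, were called with IL4 plus emodin, beside 62.9% of everything tested. On the first scale 27 rose and 20 fell, where 37.3% and 25.6% of everything tested did, and the median was 0.14. Under quantile scaling 19 rose and 28 fell, where 26.8% and 30.2% of everything tested did. Under spike-in scaling 0 rose and 70 fell by limma, where 4.2% and 74.8% did. Mrpl36 differed by -1.51, Mrps12 by -1.25, Mrpl41 by -0.92, Mrpl20 by -0.84, Mrpl33 by -0.79, Mrpl34 by -0.76, Mrpl50 by -0.74 and Mrps11 by -0.74. These 8 were the largest falls among called genes picked for emodin and control arrays that did not overlap.

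The largest rises over control on the first scale were Mrpl1 at 1.14, Mrpl32 at 0.98, Mrps30 at 0.96, Mrps18a at 0.77, Mrpl49 at 0.72, Mrps34 at 0.71, Mrpl45 at 0.70 and Mrps2, the homolog of bacterial S2, at 0.65. The other probe of Mrpl49 differed by -1.77 and the mean of its probes by -0.53, so its place here is uncertain. Under spike-in scaling Mrpl1, Mrpl32 and Mrps30 stood at 0.19, 0.036 and 0.012, uncalled, and the other 5 stood below 0. Mrps2 had levels of 2.27, 2.25, 2.41 and 2.36 with IL4 plus emodin, against 1.61, 1.74, 1.74 and 1.59 in control. Every emodin array was higher on the first scale, and the spike-in difference was -0.29. Of the other genes with set roles, Mrpl58 was called at 0.36 on the first scale, a call lost under quantile scaling, at 0.12, and without control replicate 1 or 4 or IL4 plus emodin replicate 3, and it stood at -0.58 under spike-in scaling. Mrpl12, Mrpl3, Mrpl44, Mrps18b and Mrps18c differed by -0.26, -0.15, 0.081, 0.17 and -0.20 without a call.

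Mrps26 and Mrps25, the genes called with IL4, were not called between IL4 plus emodin and IL4 on the first scale. Against IL4, IL4 plus emodin left Mrps26 at -0.14 and Mrps25 at 0.067. Mrps26 had levels of 5.46, 5.63, 5.77 and 5.68 with IL4 plus emodin and Mrps25 had 4.46, 4.68, 4.78 and 4.77, which in both genes overlap with the IL4 arrays. Under quantile scaling Mrps26 differed by -0.37 with an adjusted p by limma of 0.0004, and under spike-in scaling it differed by -1.21 and Mrps25 by -1.01, so the direction of Mrps25 depends on the scaling.

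The median level of the 77 genes was 4.30 to 4.67 on the emodin arrays, 4.33 to 4.65 on the IL4 arrays and 4.20 to 4.65 on the control arrays, relative to the 75th percentile. The 3 ranges overlap. On the spike-in scale the median log2 signal was 13.08 to 13.28 with IL4 plus emodin, 14.12 to 14.35 with IL4 and 13.91 to 14.34 in control, and there the emodin arrays lay below all others.

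**Figure D4:**
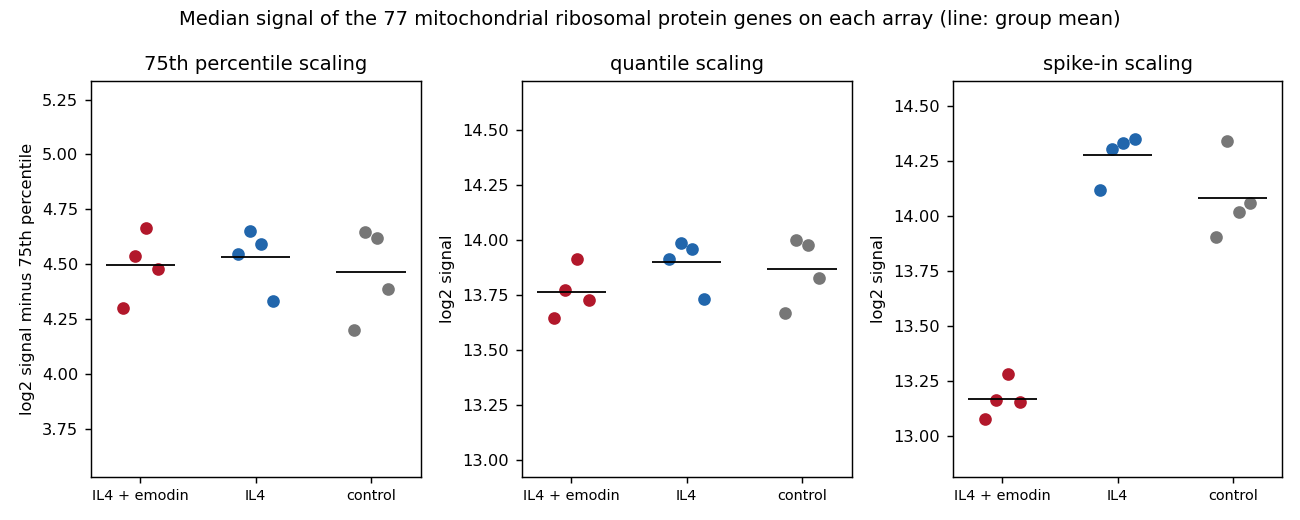
Median log2 signal of the 77 tested genes on each array (y axes, all spanning the same height) under 75th percentile, quantile and spike-in scaling, with groups along the x axis, 1 point an array and a line at the group mean. The groups overlap in the first panel, from 4.20 to 4.67, and under spike-in scaling the emodin arrays, at most 13.28, lie below the others, at least 13.91.

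Of the 5 ribosome components with names of their own, IL4 called none against control by limma, and the lowest adjusted p by limma of the 5 was 0.081, for Ptcd3. In that comparison 17.5% of everything tested was called. Dap3, a GTP-binding protein of the small subunit, was higher by 0.44 with IL4 plus emodin than with IL4 on the first scale and stood at 0.31 and -0.64 under quantile and spike-in scaling. Aurkaip1, also of the small subunit, was higher by 0.34 and stood at -0.17 and -0.73 under the other scalings. Ptcd3, an RNA-binding pentatricopeptide protein of the small subunit, was lower by 0.66 and fell under all 3 scalings. Chchd1 of the small subunit and Gadd45gip1 of the large one differed by 0.26 and 0.22 on the first scale, uncalled.

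Genes for building the ribosome were counted in the same way. Of 23 assembly genes tested, 5 rose and 11 fell relative to the 75th percentile against IL4, with a median of -0.20, 5 rose and 12 fell under quantile scaling, and 1 rose and 21 fell under spike-in scaling. Over everything tested 39.4% rose and 26.5% fell on the first scale, 29.4% and 30.9% under quantile scaling, and 3.52% and 80.2% under spike-in scaling. Mrm2, which methylates the large mitochondrial ribosomal RNA, fell by 1.91 and Mrm1, which acts on the same RNA, fell by 1.02. Rbfa, an assembly factor of the small subunit, was lower by 0.94. Mettl17, also needed for small-subunit assembly, rose by 1.49 and was still 0.41 higher, and called, under spike-in scaling. With IL4 against control, 1 of the 23 was called, Rcc1l, a regulator of large-subunit assembly, at 0.30. In that comparison 17.5% of everything tested was called, 8.97% as higher.

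Of 15 mitochondrial translation genes, 4 rose and 6 fell with IL4 plus emodin against IL4 on the first scale, and their median was -0.083. On that scale 39.4% of everything tested rose and 26.5% fell. Under quantile scaling 3 rose and 6 fell, where 29.4% and 30.9% of everything tested did. Under spike-in scaling 0 rose and 13 fell by limma, where 3.52% and 80.2% did. Oxa1l, the insertase that takes up chains from the ribosome, was higher by 0.91, and Gfm2, which helps recycle ribosomes, by 0.90. Under spike-in scaling these stood at -0.16 and -0.17, uncalled. Mtfmt, which formylates the initiator tRNA, fell by 1.09, and Lrpprc, which keeps mitochondrial mRNAs stable, fell by 0.81. Both fell under all 3 scalings.

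Of 16 genes that copy, transcribe and process mitochondrial DNA and RNA, 2 rose and 9 fell on the first scale, with a median of -0.41. On that scale 39.4% of everything tested rose and 26.5% fell. Under quantile scaling 2 rose and 10 fell, where 29.4% and 30.9% of everything tested did. Under spike-in scaling 0 rose and 15 fell by limma, where 3.52% and 80.2% did. Elac2, which trims tRNA ends, fell by 1.12, Pnpt1, an exonuclease, by 0.88, Ssbp1, which coats single-stranded mitochondrial DNA, by 0.76 and Tfam, the packaging and transcription factor, by 0.58. Mtpap, the mitochondrial poly(A) polymerase, rose by 1.39 on the first scale and stood at 0.31, uncalled, under spike-in scaling. With IL4 against control, Hsd17b10, Supv3l1 and Elac2 were higher by 0.43, 0.36 and 0.27. These are 3 of the 16, all higher, while 17.5% of everything tested was called and 8.97% was called higher.

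Regulators of nuclear genes for mitochondria were read from the same arrays. With IL4 against control, Ppargc1b, a coactivator known for its part in alternative activation, was higher by 1.87, Myc by 0.91 and Esrra by 0.31. These are 3 of 11, all higher, beside the same 17.5% called and 8.97% called higher. With IL4 plus emodin against IL4, 3 of the 11 rose and 7 fell on the first scale. On that scale 39.4% of everything tested rose and 26.5% fell. Under quantile scaling 3 rose and 6 fell, where 29.4% and 30.9% of everything tested did. Under spike-in scaling 1 rose and 9 fell, where 3.52% and 80.2% did. Ppargc1b was not well above background on any of the 4 emodin arrays and was at least 10.95-fold lower than with IL4. Pprc1, a coactivator of the same family, fell by 1.53, and the transcription factors Nrf1, Gabpa and Myc fell by 1.04, 0.67 and 0.62. Ppargc1a, the third coactivator, rose by 1.77 and was still 0.70 higher under spike-in scaling. Beside these, NRF1 letters were in the promoters of 7 of the 21 members with a promoter that rose on the first scale and 2 of the 19 that fell, and ETS letters in 3 of 21 and 8 of 19. Of the 28 that were not called, 5 had NRF1 letters and 14 had ETS letters. YY1 letters were in 2 of the 21, 4 of the 19 and 2 of the 28. The E-box was in 2, 2 and 1 of them, and SP1 letters were in 10, 6 and 18. No test was made of these counts or of a link between them and the regulators.

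The differences of the mitochondrial ribosomal protein genes were wider spread than those of 2 other sets of complex subunits. On the first scale the SD of the differences between IL4 plus emodin and IL4 was 0.50 over the 77 genes, 0.30 over 80 nuclear genes for oxidative phosphorylation subunits and 0.14 over 75 cytosolic ribosomal protein genes, beside 0.90 over everything tested. Of the 75 cytosolic genes 74 rose on the first scale, with a median of 0.75, led by Rpl24, Rps3, Rpl9 and Rpl7a at 1.16, 1.09, 1.08 and 1.05. Their median was 0.070 under quantile and -0.32 under spike-in scaling. By limma 9 rose and 0 fell under quantile scaling, and 0 rose and 49 fell under spike-in scaling. Of the 80 oxidative phosphorylation genes 32 rose and 3 fell on the first scale, with a median of 0.25, where Atp5g2 and Atp5h of the ATP synthase and Ndufa6 of complex I were higher by 0.83, 0.80 and 0.70 and Sdhd of complex II was lower by 0.72. Under quantile scaling 8 rose and 33 fell, and under spike-in scaling 0 rose and 78 fell by limma. The counts of both sets stand beside 39.4% rises and 26.5% falls over everything tested on the first scale. These shares were 29.4% and 30.9% under quantile scaling and 3.52% and 80.2% under spike-in scaling. The SDs are descriptions of gene lists and were not tested against each other. The cytosolic genes and the 77 genes also lay at unlike levels. On the emodin arrays the median first-scale level of the cytosolic genes was 9.30 to 9.46, against 4.30 to 4.67 for the 77 genes. On the IL4 arrays these medians were 8.44 to 8.70 and 4.33 to 4.65. Whether signal level had a part in the SDs was not tested.

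**Figure D5:**
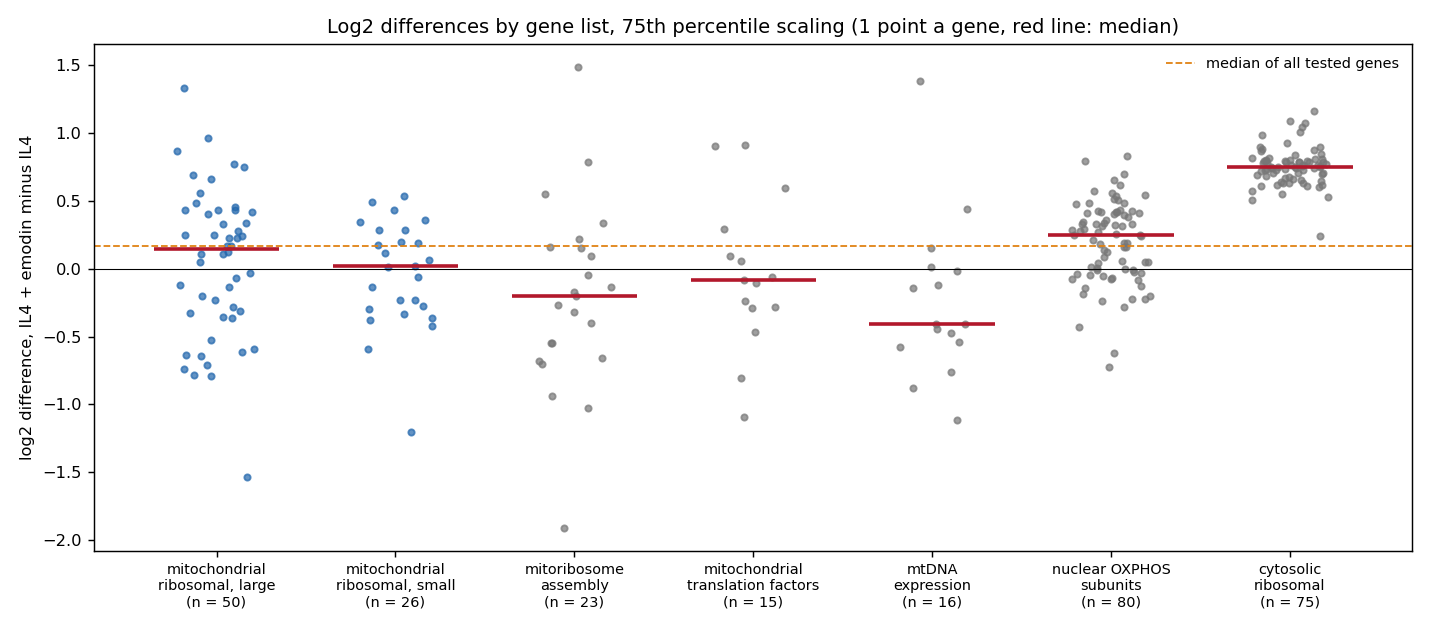
Log2 difference between IL4 plus emodin and IL4 relative to the 75th percentile (y axis), 1 point a gene, for the large and small subunit of the mitochondrial ribosome and 5 other gene lists (x axis), with red lines at list medians and a dashed line at the median of everything tested. The cytosolic ribosomal genes lie close together around 0.75, a median that is 0.070 under quantile and -0.32 under spike-in scaling, while the mitochondrial ribosomal genes reach from -1.54 to 1.34.

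Mrps11 and Mrpl46 start on opposite strands 42 bases apart, the only such pair among the promoters found. Mrps11, a small-subunit protein near the mRNA exit, had levels of 0.93, 1.13, 1.42 and 1.24 with IL4 plus emodin, against 1.67, 1.78, 1.90 and 1.74 with IL4. Its groups did not overlap, and the difference was -0.59 with an adjusted p by limma of 0.00174. Mrpl46 had levels of 2.90, 2.92, 3.16 and 3.04 with IL4 plus emodin, against 2.77, 2.94, 2.97 and 2.67 with IL4. Those groups overlapped, and the difference was 0.17 with an adjusted p by limma of 0.184. Under spike-in scaling both genes fell, Mrps11 by 1.66 and Mrpl46 by 0.91, and the difference between the 2 genes was not tested.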

How the data were processed

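The deposited files were Agilent Feature Extraction 10.7.3.1 scanner files, 1 array each, per the submitters' processing notes and the file headers, on a 1-colour Cy3 design. Intensity values in the processed signal column had been background-subtracted by the authors' scanner software, per the file headers. The deposited value table held log2 values that matched quantile-normalized log2 signal centred on each probe's median over the 12 arrays, as recomputed here.

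Flagged spots were left out, spots of a probe were averaged, and 27702 probes well above background on every array of some group were kept. Each gene was read by its brightest probe. Log2 signal minus the array's 75th percentile was fitted with limma 3.58.1 in R 4.3.3 (all 12 arrays, 9 residual degrees of freedom), and Benjamini-Hochberg adjustment covered all 20859 genes, 13194 of them with a symbol. Gene names came from RefSeq by transcript accession: 27509 probes matched a symbol and 28172 did not. A gene called not well above background in a group has only a bound there, the fold against the lowest detected signal on each array.

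Alternatives were quantile and spike-in scaling, normexp (offset 50) on the spot and background medians, the deposited table, no dimness filter, the mean of probes, the compared groups alone, labelled sex, a replicate block, and leaving out each array. The replicate number, taken from the titles, was also the slide column, and IL4 and control arrays of 1 number deviated together (4 correlations of 0.31 to 0.52), so the block is given beside that comparison. For IL4 plus emodin the same correlations were 0.093 to 0.44 with IL4 and 0.056 to 0.52 with control. The block counts for these comparisons are given in the last section.

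Genes named were, for each comparison, the 8 called genes with the largest rise and the 8 with the largest fall whose groups did not overlap, 10 genes with set roles, every called gene where 12 or fewer were called, and up to 4 called genes of each other list. Mrpl46, Mrps7, Mrps14, Mrps28, Mrps36 and Mrps6 were named after their values were seen. The genes and lists were chosen with earlier results of these data known. The fit was tested on simulated data with independent noise and no effect of slide or replicate. That test cannot speak for such effects on these arrays.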

Additional observations from a re-analysis of the deposited data

Results flagged for a closer look

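Of 92 groups of 4 arrays looked at, 2 held an array far from the other 3, where chance gives about 1 in 20. For Mrpl44, which has the fold of an RNase, the level on IL4 plus emodin replicate 1 was 3.08, below 3.13 to 3.14 on the other 3 arrays. The 75th percentile of the signal was 813 on IL4 replicate 1, above 762 to 766 on the other 3 IL4 arrays. Without that array the calls on Mrps26 and Mrps25 against control held.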

How the results depend on the processing

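Among the recomputed values of named genes, 1185 kept their call or stayed uncalled, 28 lost a call, 19 gained one and 22 reversed. A change of sign between values that were both uncalled was counted among the 1185. A reversal needed a call on either side. Under spike-in scaling, IL4 plus emodin against IL4 called 74 of the 77 with a median of -0.96, while 83.7% of everything tested was called. The values that reversed were Mrps30 -0.11, Mrpl32 -0.20, Mrpl49 -0.30, Mrps18a -0.32, Mrpl45 -0.39, Mrpl14 -0.41, Mrpl30 -0.51, Mrps34 -0.54, Mrpl58 -0.74 and Mrps18b -1.06. Against control they were Mrps18a -0.15, Mrpl49 -0.23, Mrps34 -0.24, Mrpl45 -0.25, Mrps2 -0.29, Mrpl58 -0.58, Mrps18b -0.78 and Mrpl44 -0.86. With the mean of a gene's probes Mrpl49 stood at -0.47 against IL4 and -0.53 against control, its probes being opposed, and Mrps18b against IL4 stood at -0.19 under quantile scaling and in the deposited table. The median of IL4 plus emodin against control was -0.80 under spike-in scaling, -0.035 under quantile scaling, -0.038 in the deposited table and -0.049 with normexp and quantile. For IL4 against control, normexp called 5 with the 75th percentile and 6 with quantile, the mean of probes called 1, and the replicate block called 5. With the block 25.4% of everything tested was called, and that share was not counted for normexp or the mean of probes. The cause was not tested, other than the shift of the array level that spike-in scaling puts in by construction.

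Leaving out 1 array at a time gave 1 to 4 called for IL4 against control, with 4 without control replicate 1 and 1 without control replicate 4 or IL4 replicate 2, and medians of -0.062 to 0.057. It gave 38 to 47 called and medians of 0.039 to 0.16 for IL4 plus emodin against IL4, and 43 to 47 and 0.047 to 0.21 against control. The share of everything tested that was called was not counted with an array left out. With all 12 arrays it was 17.5%, 65.9% and 62.9% in these comparisons. Mrpl12 lost its call against IL4 without IL4 replicate 2 or 3 or without IL4 plus emodin replicate 1, 2 or 4, with adjusted p by limma of 0.0603 to 0.0844, and Mrps18c gained one without control replicate 4, at 0.0451. Mrpl58 lost its call against IL4 without IL4 replicate 1 or 4 or IL4 plus emodin replicate 3 or 4, and against control without control replicate 1 or 4 or IL4 plus emodin replicate 3. Against control, Mrpl12 and Mrpl3 gained a call without control replicate 1, Mrps18b without IL4 plus emodin replicate 1 and Mrps18c without control replicate 4. Same-numbered arrays of IL4 plus emodin correlated at 0.093 to 0.44 with IL4 and at 0.056 to 0.52 with control. In these comparisons the replicate block called 54 against IL4 and 55 against control, beside 72.4% and 69.6% of everything tested. Labelled sex showed 0 interactions by limma among the 77 in any comparison, as over everything tested, and 0 at an unadjusted p under 0.05. Of everything tested 1.30% had such a p for IL4 against control. It was 2.43% for IL4 plus emodin against IL4 and 2.08% against control. Xist and the Y-linked genes go against the label, which also followed the slide column, so these counts cannot speak for sex. All of the 78 genes but Mrpl21 were above background, and 4 arrays a group limit the precision.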
